A study of Homo sapiens with 27 samples.

Results

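De novo purine synthesis builds the purine ring step by step on a ribose phosphate, and the 10 genes described here encode its enzymes from the activation of ribose 5-phosphate to IMP and on to GMP. PRPS1, PPAT, GART, PFAS, PAICS, ADSL, ATIC, IMPDH1, IMPDH2 and GMPS were taken by name, as enzymes of the route, with earlier results of these data known, and all 10 were found among the 57905 genes of the deposited table. Of these, 6 (PRPS1, PPAT, GART, PFAS, PAICS and ADSL) also stand on a nucleotide metabolism list that the study drew from its own libraries, these included, so their direction at 24 h is not independent evidence. ATIC, IMPDH1, IMPDH2 and GMPS are not on that list.

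RNA-seq libraries were made from U937, a human myeloid leukemia cell line, with and without exposure to matrine, an alkaloid of Sophora flavescens, at 0.8 mg/ml. There were 3 control libraries, 3 libraries after 30 min of matrine and 3 libraries after 24 h, all from unmodified cells grown in medium with serum. Matrine was dissolved in water, which the methods name as its vehicle, and nothing says whether the control cells were harvested with the 30 min or with the 24 h cells. Libraries of HL-60 and K562 cells are not analysed here.

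Purines are needed as bases of DNA and RNA, as the energy carriers ATP and GTP and as parts of cofactors, and rapidly dividing cells make much of their supply by this route. PRPS1 makes the activated sugar PRPP, PPAT catalyses the first committed step, and GART, PFAS, PAICS, ADSL and ATIC carry out the later steps up to IMP. IMP is then turned into GMP by IMPDH1 or IMPDH2 followed by GMPS, or into AMP by an adenylosuccinate synthase followed by ADSL.

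The libraries held 17314931 to 21930018 counts, of which the 10 most abundant genes took 4.99% to 5.28% and mitochondrial genes 3.59% to 3.92%. Nothing in the labels says that replicates were separate cultures, so the p-values measure only the spread between these libraries, which may be technical. The myeloid markers LYZ, ITGB2, SPI1, PTPRC, CD33 and CD4 were expressed in control cells, and MPO and CD68 were low, at means of 0.313 and 0.557 FPKM, whereas the defining markers HBG1, HBE1, CD3E, CD3D, MS4A1 and EPCAM were at 0 in all 9 libraries. EPOR and CD79A were low, at means of 3.07 and 1.49 FPKM in control cells. At 24 h, ITGB2 was called higher and 0 of the 7 myeloid markers tested were called lower, beside 14.8% and 11.5% of all genes tested. ITGB2 had a mean of 223 FPKM compared with 114 in control cells. MPO stayed low, at 1.84 compared with 0.313. It passed the filter of mean FPKM above 1 only through the 24 h libraries, so its difference is given as a description. Of the 7 markers, 3 had a log2 fold change below 0, beside 6044 of all 12035 genes tested. The lymphoid marker CD79A was also called higher, at a mean of 2.58 FPKM compared with 1.49. The part of these changes in the results was not tested. The third 30 min library differed most from its group, with a chi-square per degree of freedom of 8.51 and 11.9 against the others, compared with 5.28 between the other two. The second control library gave 7.20 and 7.39, compared with 2.38 between the other controls. In bulk RNA, fewer cells expressing a gene and less RNA per cell cannot be told apart.

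PPAT and PAICS, which catalyse the first and a later step of the route, are neighbours on chromosome 4 that are transcribed away from each other, and their shared promoter region is shown because both genes were among those that fell most at 24 h. In the RefSeq promoter table (GRCh38.p14) their start sites, 56435615 on the minus strand and 56435752 on the plus strand, lay 137 bases apart. The bases between the genes, up to the PAICS start of GENCODE 44, were read on the plus strand. The canonical E-box CACGTG, the letters bound by MYC with MAX, was found once in the windows of both genes and is drawn in capitals with 12 bases on either side. It began 40 bases after the PAICS start, which is 177 bases upstream of the PPAT start. ATIC held a pair of E-boxes, beginning 46 bases before and 29 bases after its RefSeq start at position 215312059 of chromosome 2, and these are shown in the same way. In GENCODE 44 the gene starts at 215311956, so both E-boxes lie inside it there, and the labels below refer to the RefSeq start.
PPAT to PAICS, chr4:56435616-56435740: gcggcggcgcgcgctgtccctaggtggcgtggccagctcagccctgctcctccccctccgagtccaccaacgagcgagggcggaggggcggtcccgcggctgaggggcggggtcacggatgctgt
PPAT and PAICS E-box, chr4:56435780-56435809: ctgtatttgctgCACGTGgaaatctccgtt
ATIC E-box before the start, chr2:215312001-215312030: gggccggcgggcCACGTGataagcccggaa
ATIC E-box after the start, chr2:215312076-215312105: ctcctacctgcgCACGTGgtgccgccgctg

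Promoter windows ran from 250 bases before to 50 bases after a start, and CACGTG reads the same on both strands. Of the 8 members with an entry (ADSL and IMPDH2 had none), 3 held the motif in any window (37.5%), and 2 of these 3 share a single site. Over the whole table, 8.77% of 27305 gene symbols held it in any window. By window, 3 of 12 member windows held it (25%), compared with 7.26% of the 35116 windows in the whole table. A match is a description of the letters and does not show that a factor binds there.

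Expression is given first as FPKM, the authors' value scaled to gene length and library size. The order of genes by FPKM depends on the gene lengths used, and the annotation release behind them is not given. In control cells IMPDH2 was highest at 193 ± 5.47 FPKM (SD, n = 3), followed by PAICS at 86.7 ± 2.53, ATIC at 52.8 ± 0.794 and IMPDH1 at 49.3 ± 2.28. PRPS1 (43.5 ± 1.07) and GART (38.5 ± 1.59) came next, then PFAS (24.9 ± 0.735), ADSL (23.9 ± 0.877), GMPS (18.1 ± 0.437) and PPAT (10.3 ± 0.380). PPAT, the committed step, thus had the lowest FPKM of the 10 genes. The ranges of neighbouring genes in this order did not overlap, except for PFAS and ADSL. After 24 h the order was the same but for PFAS, which stood below ADSL, and the ranges of ATIC and IMPDH1 overlapped. The mean of IMPDH2 was 18.8 times that of PPAT in control cells and 24.7 times at 24 h.

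**Figure D1:**
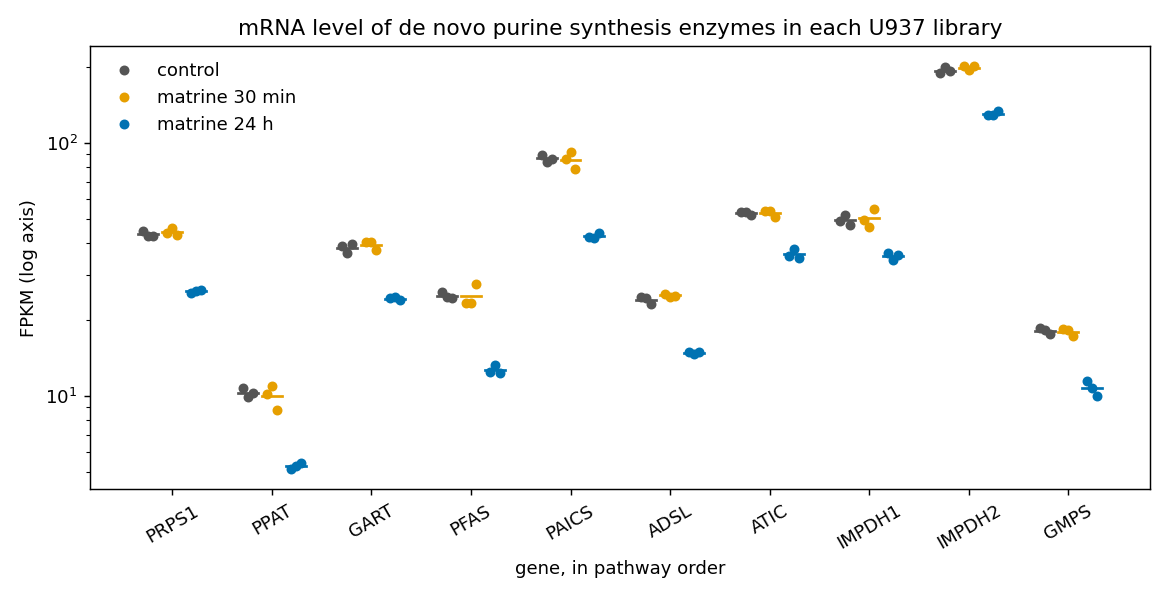
FPKM of the 10 enzymes (log axis, genes in pathway order) in each of 9 U937 libraries, with points for libraries and short lines for the means of 3. The control and 30 min points of each gene overlap, and all 24 h points lie below them.

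Whether matrine lowers the mRNA of purine synthesis was asked first by comparing 24 h of treatment with control. All 10 genes had a lower mean FPKM, at 49.3% to 72.3% of control, and 9 of them fell by the call used here (edgeR's quasi-likelihood test, with a Benjamini-Hochberg adjusted p under 0.05 and a difference of 1.5-fold or more). For comparison, 11.5% of the 12035 genes tested were called lower and 14.8% higher. The median log2 fold change of the 10 genes was -0.78, beside -0.0022 over all genes tested. Every 24 h library lay below every control library for all 10 genes, a pattern seen in 31.0% of all genes tested. The summed FPKM of the 10 genes was 535 to 545 in control libraries and 336 to 341 at 24 h.

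PRPS1 (ENSG00000147224, chrX:107628428-107651993) supplies PRPP to this route and to salvage. Its FPKM was 44.74, 42.92 and 42.85 in the control libraries and 25.37, 25.88 and 26.21 at 24 h. The groups were far apart relative to their spread, and PRPS1 fell by 0.81 on the log2 scale (SE 0.060, edgeR adjusted p = 3.0e-10).

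PPAT (ENSG00000128059, chr4:56393362-56435615) transfers the first nitrogen onto PRPP and is the enzyme inhibited by the purine end products. It had 10.67, 9.91 and 10.28 FPKM in control libraries and 5.12, 5.29 and 5.40 at 24 h. All 24 h values were near 51.2% of the control mean, and PPAT fell by 1.02 on the log2 scale (SE 0.082, edgeR adjusted p = 9.4e-10).

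GART (ENSG00000159131, chr21:33503931-33543491) is a single protein that catalyses several of the next steps. Its FPKM went from 38.92, 36.75 and 39.84 in control libraries to 24.26, 24.51 and 23.85 at 24 h. The 24 h libraries lay closer together than the controls, and GART fell by 0.73 on the log2 scale (SE 0.054, edgeR adjusted p = 2.8e-10).

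PFAS (ENSG00000178921, chr17:8247618-8270491) adds a nitrogen from glutamine. It stood at 25.71, 24.60 and 24.32 FPKM in control libraries and at 12.37, 13.26 and 12.29 at 24 h. Its mean FPKM was 50.8% of control, and in the TMM-scaled edgeR fit PFAS fell by 1.04 on the log2 scale (SE 0.067, edgeR adjusted p = 3.3e-11).

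PAICS (ENSG00000128050, chr4:56435741-56464578) joins a carboxylase and a ligase that work in succession. With 89.37, 84.32 and 86.55 FPKM in control libraries and 42.23, 41.99 and 44.17 at 24 h, it showed the greatest change of the 10 genes. PAICS fell by 1.08 on the log2 scale (SE 0.060, edgeR adjusted p = 3.7e-12).

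ADSL (ENSG00000239900, chr22:40346461-40390463) releases fumarate both on the way to IMP and on the way from IMP to AMP. Control libraries had 24.61, 24.24 and 22.94 FPKM, and 24 h libraries 14.92, 14.62 and 14.87. The 24 h values were nearly equal, and ADSL fell by 0.75 on the log2 scale (SE 0.056, edgeR adjusted p = 3.4e-10).

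ATIC (ENSG00000138363, chr2:215311956-215349773) adds the last carbon and closes the ring to IMP. Its FPKM was 53.10, 53.40 and 51.90 in control libraries and 35.68, 38.06 and 35.04 at 24 h. ATIC fell by 0.60 on the log2 scale (SE 0.056, edgeR adjusted p = 7.8e-09), just past the fold threshold of 0.585. With library totals alone in place of TMM scaling the value was -0.54 and the call was lost. It was also lost without control library 2 (-0.58), 24 h library 1 (-0.58) or 24 h library 3 (-0.58).

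IMPDH1 and IMPDH2 are isoenzymes that oxidise IMP in the step that limits GMP synthesis. For IMPDH2 (ENSG00000178035, chr3:49024325-49029447), the more abundant form, FPKM was 188.32, 199.05 and 191.82 in control libraries and 128.34, 128.55 and 133.18 at 24 h. IMPDH2 fell by 0.63 on the log2 scale (SE 0.051, edgeR adjusted p = 1.0e-09), a call that was lost with library totals alone (-0.57). In the GENCODE 44 annotation, exons of other genes cover 32.8% of the exonic bases of IMPDH2, and the strand setting of the counting is not given in the sources used here, so reads from these stretches cannot be assigned with certainty.

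IMPDH1 (ENSG00000106348, chr7:128392277-128409986) was the only member that did not pass the call at 24 h. It had 48.98, 51.73 and 47.20 FPKM in control libraries and 36.56, 34.42 and 35.92 at 24 h. The groups did not overlap and the difference passed the adjusted p threshold (edgeR adjusted p = 4.3e-07), but the log2 fold change of -0.53 (SE 0.064) was under the fold threshold. By adjusted p alone, 32.5% of all genes tested were lower.

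GMPS (ENSG00000163655, chr3:155870650-155944020) completes GMP. It had 18.43, 18.22 and 17.59 FPKM in control libraries and 11.39, 10.73 and 9.97 at 24 h. GMPS fell by 0.82 on the log2 scale (SE 0.060, edgeR adjusted p = 2.5e-10).

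Counting error was small beside these differences, since the fewest counts of a member in a library were 572, for PPAT at 24 h. Pseudogene copies of the members, 22 in all, held at most 0.974% as many counts as their parent (PRPS1). Exons of other genes also cover 11.1% of the exonic bases of ADSL and 2.22% of those of PPAT. The gene over ADSL, ENSG00000284431, is not in the deposited table. Of the genes over IMPDH2, ENSG00000272434 is in it and ENSG00000290315 is not. Gene coordinates are those of GENCODE 44 on GRCh38 and were not in the deposited table.

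**Figure D2:**
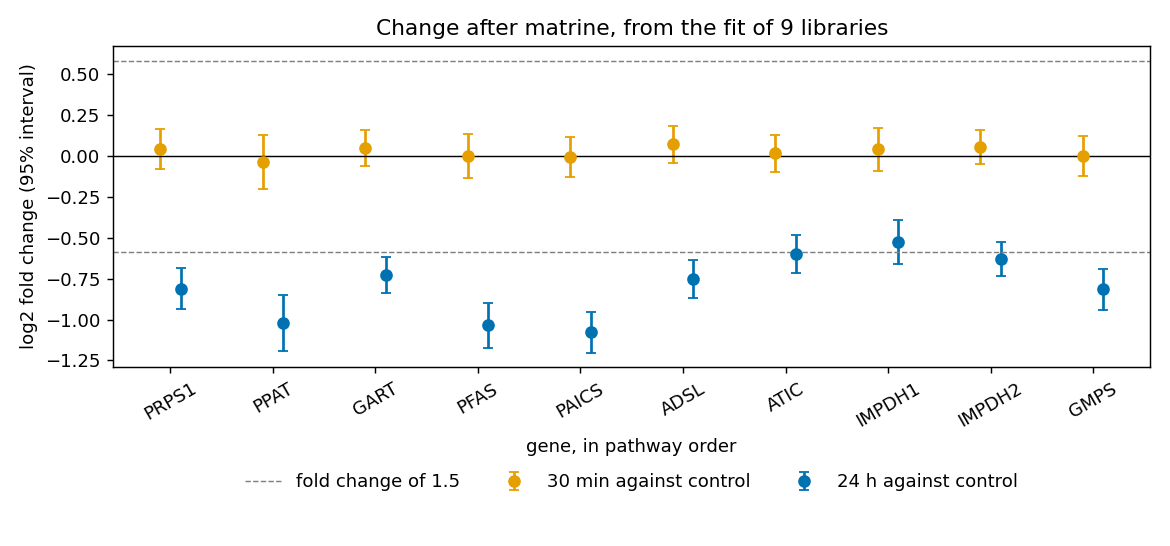
Log2 fold change of the 10 enzymes from the edgeR fit of 9 libraries at 30 min (orange) and 24 h (blue) against control, with 95% intervals and dashed lines at a fold change of 1.5. At 30 min all intervals include 0, and at 24 h the values run from -1.08 (PAICS) to -0.53 (IMPDH1).

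The comparison of 30 min with control asks which mRNAs respond early. None of the 10 genes was called (0 of 10 by edgeR, by DESeq2 and by limma), and 0 of 10 had an unadjusted p below 0.05 in edgeR. Over all 11587 genes tested, 0.544% were called lower and 0.0949% higher, and 1291 had an unadjusted p below 0.05 in edgeR. The log2 fold changes lay between -0.035 (PPAT) and 0.071 (ADSL), and the control and 30 min libraries of every member overlapped, whereas 8.91% of all genes tested had every 30 min library below and 4.89% above every control library. The 95% intervals of the members reached from -0.20 to 0.19, so a 1.5-fold change (0.585 on the log2 scale) lay outside the interval of each gene.

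At 30 min, PRPS1 had 43.94, 45.92 and 43.37 FPKM, and PPAT had 10.17, 10.90 and 8.75. GART had 40.37, 40.57 and 37.58 FPKM, and ADSL had 25.26, 24.60 and 24.88. IMPDH2 had 200.47, 194.06 and 201.22 FPKM, and GMPS had 18.31, 18.22 and 17.26. These values are close to those of the control libraries. PFAS had 23.25, 23.24 and 27.59 FPKM, and IMPDH1 had 49.56, 46.32 and 54.94. PAICS had 86.45, 91.66 and 78.52 FPKM, and ATIC had 53.90, 53.97 and 50.83. The third library held the highest PFAS and IMPDH1 values of all 9 libraries and the lowest PPAT, PAICS, ATIC and GMPS values among the control and 30 min libraries. Without it, the log2 fold changes were -0.080 for PFAS, -0.022 for IMPDH1, 0.052 for PPAT and 0.056 for PAICS, and again no member was called.

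MYC, which encodes the transcription factor whose response to matrine the study pursued, was already at 49.06, 55.14 and 58.03 FPKM at 30 min, compared with 204.34, 213.09 and 204.17 in control libraries. At 24 h it stood at 42.17, 46.05 and 43.08 FPKM. MYC fell by 1.93 on the log2 scale at 30 min (edgeR adjusted p = 1.2e-14), and at 24 h it fell by 2.30 (edgeR adjusted p = 2.4e-17). Both comparisons use the same 3 control libraries. Whether the change in MYC had a part in that of the purine enzymes was not tested.

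A direct comparison of 24 h with 30 min, in which the control libraries enter only through the shared scaling and estimate of spread, gave 9 of 10 members lower, beside 11.3% called lower and 15.7% called higher of all 11981 genes tested. Every 24 h library lay below every 30 min library for all 10 genes and for 28.6% of all genes tested. The difference was greatest for PAICS (-1.07 on the log2 scale, edgeR adjusted p = 3.9e-12) and PFAS (-1.04). IMPDH1 (-0.57, edgeR adjusted p = 1.4e-07) again stayed under the fold threshold. It passed the call with TMM over every gene of the table (-0.63), without a filter on FPKM (-0.63) and without 30 min library 2 (-0.64). By adjusted p alone 32.1% of all genes tested were lower.

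Ratios of related enzymes within a library do not depend on the scaling between libraries, and 4 pairs were compared at both times by a two-sided exact permutation test, which with 3 against 3 libraries cannot give a p below 0.1. PRPS2, the isoenzyme of PRPS1, was at 0.700 ± 0.0246 of the PRPS1 level in control cells and at 0.813 ± 0.0217 at 24 h (SD, n = 3, exact p = 0.1, adjusted over 8 tests 0.267). The ratio of IMPDH1 to IMPDH2 was 0.255 ± 0.00804 in control cells and 0.274 ± 0.00937 at 24 h (SD, n = 3, exact p = 0.1, adjusted 0.267). For both pairs, every 24 h library lay above every control library. The ratio of PAICS to PPAT, the neighbours with a shared promoter region, was 8.43 ± 0.0677 in control cells and 8.12 ± 0.163 at 24 h (SD, n = 3, exact p = 0.1, adjusted 0.267), with all 24 h libraries below. ADSS2 to IMPDH2, the first enzymes of the AMP and GMP branches, stood at 0.194 ± 0.00712 and 0.178 ± 0.0101 (SD, n = 3, exact p = 0.2, adjusted 0.4), and these groups overlapped. At 30 min all 4 ratios overlapped with control (exact p from 0.4 to 0.9). None of the 8 tests passed after adjustment.

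**Figure D3:**
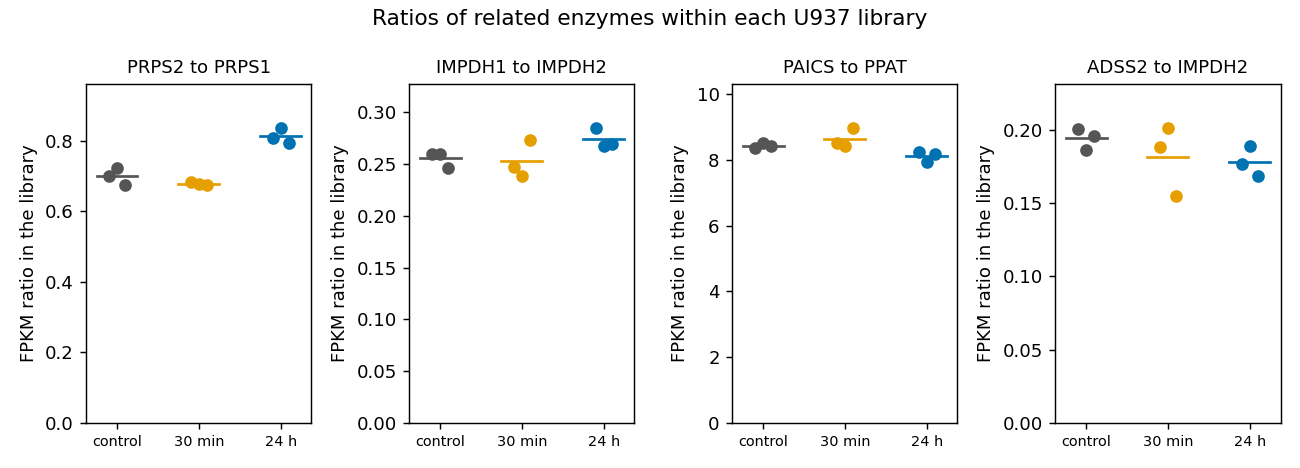
Ratio of FPKM values of related enzymes in each library, with points for libraries and lines for the means of 3 in control, 30 min and 24 h groups, on axes that start at 0. PRPS2 to PRPS1 has a mean of 0.700 in control libraries and of 0.813 at 24 h, and the PAICS to PPAT ratio stays between means of 8.12 and 8.63.

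Enzymes that sit beside the route were then read at 24 h from lists chosen by function, to be set beside the 11.5% of all genes tested that were called lower and the 14.8% called higher. PRPS2 had 31.33, 31.10 and 28.94 FPKM in control libraries and 20.51, 21.67 and 20.83 at 24 h, and fell by 0.60 on the log2 scale (edgeR adjusted p = 6.6e-08), a call lost with library totals alone or a filter of mean FPKM above 5. PRPSAP1 and PRPSAP2, proteins that associate with PRPP synthetases and restrain them, were not called, with log2 fold changes of 0.16 and 0.17, and all their 24 h libraries lay above control, as for 38.7% of all genes tested. PRPS1L1 was at 0 in every library. So 1 of 3 tested relatives of the PRPP synthetases was called. In the AMP branch, ADSS2 went from 37.76, 37.13 and 37.57 FPKM in control libraries to 22.65, 24.28 and 22.48 at 24 h and fell by 0.75 on the log2 scale (edgeR adjusted p = 1.6e-08). ADSS1, the muscle form, had 0.14 to 0.15 FPKM in control and 0.33 to 0.40 at 24 h, too low to be tested.

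Salvage enzymes, which recover free bases and nucleosides, gave 1 of 7 called lower, a share near that of all genes tested. MTAP, which releases adenine from methylthioadenosine, fell by 0.66 on the log2 scale (edgeR adjusted p = 5.1e-07), a call lost with a filter of mean FPKM above 5, and the other 6, which include HPRT1 and APRT, were not called. The median of the 7 was -0.39. Among nucleotide kinases, 3 of 9 tested fell, led by NME1 (-1.17, edgeR adjusted p = 1.9e-11) and AK4 (-1.10, edgeR adjusted p = 1.6e-08). The third was NME2 (-0.62), named after its value was seen, which lies next to NME1 and resembles it in sequence, so reads may be split between them.

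Among breakdown and interconversion enzymes, NT5C, a nucleotidase, fell by 0.60 on the log2 scale (edgeR adjusted p = 1.2e-05), a call lost under the same 2 settings as that of PRPS2. GMPR, which converts GMP back to IMP, rose by 0.67 (edgeR adjusted p = 0.00038). SAMHD1, which hydrolyses dNTPs, was low throughout, at 0.87 to 1.16 FPKM in control libraries and 1.47 to 2.06 at 24 h, and it passed the filter on low values through the 24 h libraries, so its difference is given as a description. Among transporters, SLC29A1, the main equilibrative nucleoside transporter, went from 72.36, 79.19 and 72.89 FPKM to 29.55, 30.25 and 30.41 and fell by 1.37 on the log2 scale (edgeR adjusted p = 6.5e-14). The concentrative transporter SLC28A3 rose by 1.20 (edgeR adjusted p = 2.5e-07). SLC29A2, which like SAMHD1 passed the filter through the 24 h libraries, had 0.28 to 0.64 FPKM in control libraries and 1.81 to 2.27 at 24 h.

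Folate enzymes supply the formyl groups that GART and ATIC use. Of 9 tested, 3 fell and 1 rose, with a median of -0.018. SLC25A32, the mitochondrial folate carrier, fell by 1.09 on the log2 scale (edgeR adjusted p = 1.2e-11) and MTHFD1L, which releases formate in mitochondria, by 0.90 (edgeR adjusted p = 4.6e-11). MTHFD1, the cytosolic enzyme that makes 10-formyltetrahydrofolate, is named after its value was seen and fell by 0.79 (edgeR adjusted p = 3.5e-11). SHMT1, the cytosolic serine hydroxymethyltransferase, rose by 0.59 (edgeR adjusted p = 6.2e-08).

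De novo pyrimidine synthesis, the parallel route to the other bases, had 3 of 5 genes called, all lower, and a median of -0.72. UMPS fell by 1.10 on the log2 scale (edgeR adjusted p = 5.2e-11) and DHODH by 0.96 (edgeR adjusted p = 5.7e-09). The third called gene, CTPS1, went from a mean of 33.3 FPKM in control cells to 21.0 at 24 h. CAD, which starts the route, was at -0.29 and was not called. CTPS1 and CAD are named after their values were seen. Among 16 proliferation genes 4 fell, led by CCNB1 (-0.71, edgeR adjusted p = 3.4e-10) and PLK1 (-0.70, edgeR adjusted p = 4.8e-10). All 16 had a log2 fold change below 0, beside 6044 of all 12035 genes tested, and the median of the 16 was -0.43. The part of proliferation in the change of the purine enzymes was not tested. At 30 min none of the genes tested in these lists was called (0 by edgeR). Of the 9 folate genes tested, 1 had an unadjusted p below 0.05 in edgeR, beside 1291 of all 11587 genes tested.

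**Figure D4:**
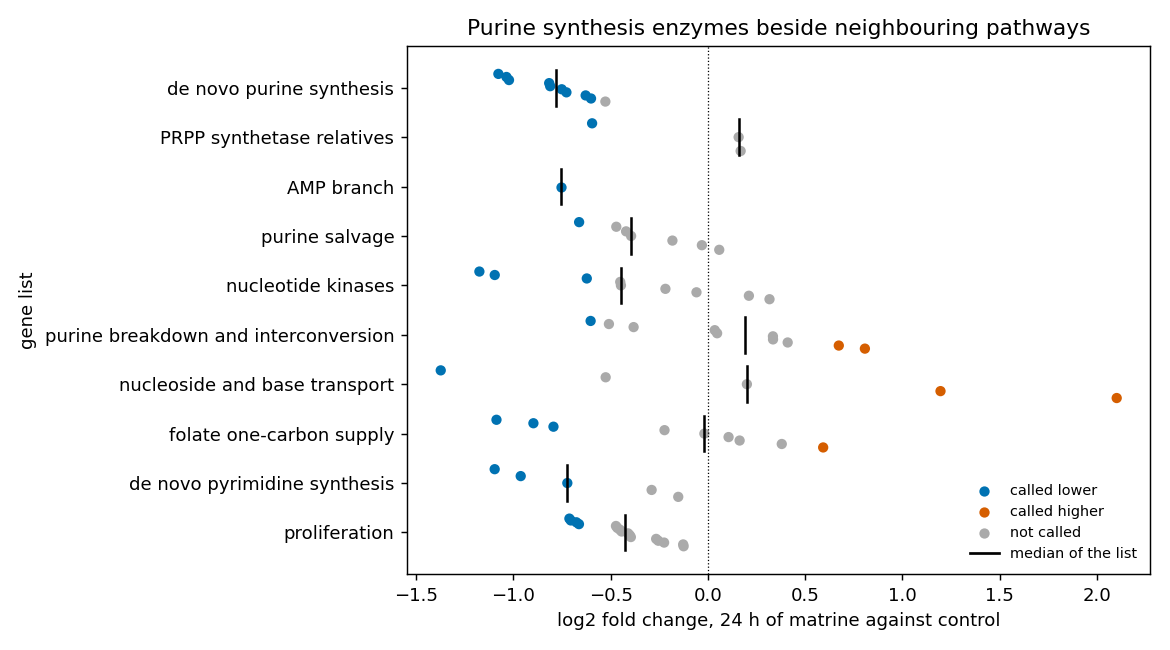
Log2 fold change at 24 h against control of each tested gene (points, coloured by call) in the 10 purine synthesis enzymes and 9 neighbouring lists, with a black line at each median. The purine synthesis median is -0.78, that of pyrimidine synthesis -0.72 and that of proliferation genes -0.43, whereas breakdown and transport genes lie on both sides of 0, with SAMHD1 and SLC29A2 plotted on the strength of their 24 h values.

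The genes whose log2 CPM followed the mean of the 10 members most closely over the 9 libraries were HSP90AB1 (Pearson's r = 0.999), FKBP4, RUVBL1, NCL and HSPA8. HSP90AB1, a cytosolic chaperone, had a mean of 1022 FPKM in control cells and 513 at 24 h. FKBP4, a co-chaperone, went from 91.0 to 33.7, and RUVBL1, an ATPase of chromatin and chaperone complexes, from 25.1 to 9.05. NCL, the nucleolar protein nucleolin, went from 288 to 137 FPKM, and HSPA8, the constitutive HSP70 chaperone, from 387 to 142. The 9 points fall into the 24 h libraries and the other 6, so such a value mostly reflects that split, and 12.2% of 12025 genes had an r above 0.95.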

How the data were processed

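U937 cells were profiled by RNA-seq in 9 of the 27 libraries of the series. According to the submitters' processing notes, reads were trimmed with cutadapt 1.9.1, mapped with HISAT2 2.0.1 and counted per gene with HTSeq 0.6.1. The authors deposited the raw count of each gene per library and FPKM values rounded to hundredths. The notes name GRCh37 whereas the methods name hg38, and the table holds no coordinates. The annotation release, strand setting and treatment of multi-mapped reads are not given in the sources used here. GENCODE 44 gave a symbol for 51996 of the 57905 identifiers.

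Counts were tested with edgeR 4.0.16 in R 4.3.3 (quasi-likelihood, TMM over the tested genes, 9 libraries in 1 fit). A gene entered a comparison if its FPKM averaged more than 1 in the 6 libraries concerned, after the thresholds the authors applied. It was called at an adjusted p under 0.05 (Benjamini-Hochberg, all tested genes) with a difference of 1.5-fold or more. The SE was computed from the log2 fold change and its F statistic, and 95% intervals use the degrees of freedom of the fit. DESeq2 1.42.0, limma 3.58.1 on log2(FPKM + 0.1) or log2(FPKM + 1), other scalings, filters and thresholds, a replicate block and each library left out were alternatives. The procedure was tested on simulated data. The changes simulated all lay well past the 1.5-fold threshold, so calls close to that threshold were not covered. Ratios were tested with scipy.

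The members, the gene lists and the tests were chosen with earlier results of these data known. Genes named were the members, the PRPP synthetase relatives, the AMP branch, MYC, in each other list up to 2 called genes with the largest increase and 2 with the largest decrease at 24 h, and the 5 genes most correlated with the members. The cell type markers, NME2, MTHFD1, CTPS1, CAD, HPRT1 and APRT were named outside this rule. Replicate numbers did not pair the libraries (correlations of same-numbered deviations from -0.13 to 0.090), and within groups the libraries differed beyond sampling noise (chi-square per degree of freedom from 2.14 to 11.9).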

Additional observations from a re-analysis of the deposited data

Results flagged for a closer look

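For 9 members the direct edgeR test of 24 h against 30 min gave a call of lower, beside 11.3% of all genes tested. All 10 members passed its adjusted p threshold (edgeR adjusted p at most 1.4e-07), beside 32.1% of all genes tested that were lower by adjusted p alone. IMPDH1 stayed under the 1.5-fold threshold, and the values of the 9 called genes follow. On the log2 scale the 24 h level was lower than the 30 min level by a fold change of -0.85 for PRPS1, -0.99 for PPAT, -0.78 for GART, -1.04 for PFAS and -1.07 for PAICS. It was -0.82 for ADSL, -0.62 for ATIC, -0.68 for IMPDH2 and -0.82 for GMPS. All 3 libraries at 24 h lay below all 3 at 30 min for each of these genes, as they did for 28.6% of all genes tested. What set the timing was not tested.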

How the results depend on the processing

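At 24 h all 220 values of the 10 members over 22 alternatives were below 0, from -1.13 to -0.40 on the log2 scale, with an adjusted p of at most 0.00021. With the 1.5-fold threshold kept, 7 to 9 members were called lower, beside 7.22% to 13.7% of all genes tested. With a fold change of at least 2, 3 members were called lower at 24 h against control and 2 against 30 min. The shares of all genes tested were 3.09% and 2.83%. Leaving out 1 library at the 1.5-fold threshold gave 8 to 9 members against control and 9 to 10 against 30 min. The shares of all genes tested were then 11.1% to 11.8% and 10.5% to 11.7%. ATIC and IMPDH2, near the threshold, lost the call at 24 h with library totals alone, with limma, and with a filter of mean FPKM above 5, and IMPDH1 gained it without a fold threshold. Against 30 min, IMPDH1 also gained it with TMM over every gene (-0.63) and without a filter (-0.63). The replicate block changed no call of a member at any time, and as a value it moved PFAS at 30 min to -8.12e-05.

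At 30 min no alternative called a member, and values near 0 changed sign. PAICS was at 0.0074 with relative log expression and with DESeq2, and at 0.00295 with TMM over every gene of the table (chosen after seeing the data) and without a filter. PFAS was at -0.011 with library totals, -0.015 and -0.014 with limma at pseudocounts 0.1 and 1, and -0.00792 with quantile normalization. GMPS was at -0.012 in the first 3 of these. Leaving out 1 library gave -0.033 to 0.056 for PAICS, -0.080 to 0.069 for PFAS, -0.0015 to 0.049 for ATIC, -0.022 to 0.033 for GMPS, -0.081 to 0.052 for PPAT and -0.022 to 0.12 for IMPDH1. The log2 change of the IMPDH1 to IMPDH2 ratio ran from -0.072 to 0.025 and that of ADSS2 to IMPDH2 from -0.19 to 0.0044. The cause was not tested.

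With mean FPKM above 5, the lists gave 0 PRPP synthetase relatives, 0 salvage genes and 1 kinase called lower, 0 breakdown genes lower and 0 higher, and 0 transporters higher. All 3 PRPP synthetase relatives and all 7 salvage genes were still tested there, whereas only 7 of 9 kinases, 7 of 10 breakdown genes and 2 of 5 transporters were. With library totals alone, 0 PRPP synthetase relatives and 0 breakdown genes were called lower. The calls over all genes at 24 h were 1387 lower and 1785 higher, 749 and 913 with mean FPKM above 5, 372 and 758 at a fold of 2, and 3912 and 3717 without a fold threshold. With limma at a pseudocount of 1, 895 were lower. At 30 min 63 genes were lower and 11 higher, against 40 and 7 with mean FPKM above 5, 95 and 31 without a filter, 23 and 1 at a fold of 2, and 153 and 34 without a fold threshold.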
